A study of Mus musculus with 12 samples.

Results

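How far the RNA response to the leukaemia fusion MLL-ENL differed between mouse preGM, committed precursors of granulocytes and macrophages, and haematopoietic stem cells (HSC) was measured as an interaction. It is the log2 change of MLL-ENL over WT preGM minus the log2 change of MLL-ENL over WT HSC, so that a positive value means that the response of preGM lay above that of HSC. All 12 libraries of the 12 in the series enter it, assigned by sample title to 4 groups of 3. MLL-ENL preGM and MLL-ENL HSC came from the strain Col1a1-MLL/ENL, whose name places the fusion construct with the collagen locus Col1a1, and WT preGM and WT HSC from C57bl/6 WT mice. By their labels, preGM were sorted without the lineage antigens, with Kit, and without Sca1, CD150, CD105, CD41 and CD16/32. HSC were sorted without lineage antigens and CD48, with Sca1, Kit and CD150. Cells of all 4 groups, WT included, were then held for 48 h in medium with serum, SCF, IL3, G-CSF and doxycycline, the drug that switches on inducible constructs, so RNA was taken after culture and not at the sort. The labels name no promoter that drives the fusion, and MLL-ENL cells without doxycycline were not analysed here. Effects of the fusion, of the strain and of the drug in that strain cannot be told apart. No label ties a replicate to an animal or a culture. The p-values therefore reflect the scatter among these libraries alone, part or all of which may be technical.

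MLL-ENL joins the DNA-binding end of MLL (Kmt2a), a histone methyltransferase, to ENL (Mllt1), a chromatin reader that brings in the transcription elongation machinery. Fusions of this kind hold homeobox genes of the Hoxa cluster and their partner gene Meis1 in an active state. Those genes are normally expressed in stem cells and early progenitors and are shut off as granulocytes and monocytes mature. HSC renew themselves and give rise to all blood lineages, while preGM are bound to the myeloid lineages and, in medium with these cytokines, go on to make granule proteases, antimicrobial proteins and then the products of late neutrophils and monocytes.

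The libraries held 38466247 to 50325955 gene counts in MLL-ENL preGM, 34741828 to 44493350 in WT preGM, 18980448 to 23453442 in MLL-ENL HSC and 14529702 to 18158086 in WT HSC. Introns held 1.49 to 3.51 counts per 100 exon counts in MLL-ENL preGM, 1.24 to 2.02 in WT preGM, 4.81 to 5.97 in MLL-ENL HSC and 3.72 to 4.11 in WT HSC. Mitochondrial genes held 1.83 to 3.12% of gene counts in MLL-ENL preGM, 2.71 to 4.09% in WT preGM, 6.32 to 6.70% in MLL-ENL HSC and 5.40 to 5.92% in WT HSC. Their part in the interaction was not tested. MLL-ENL preGM replicate 1 (-75.1 on the second principal component) and WT preGM replicate 2 (59.9) stood apart from their groups, and counts below are also given without both. Kmt2a and Mllt1, the genes joined in the fusion, had interactions of 0.31 ± 0.31 and 0.80 ± 0.31 (SE; adjusted p = 0.697 and 0.196), and Col1a1 (0 to 23 counts per library) was too low to test. Summed over 12 primary granule genes, levels were 14809 to 17317 CPM, a count scaled to a common library total, in MLL-ENL preGM, 31189 to 34269 CPM in WT preGM, 564 to 587 CPM in MLL-ENL HSC and 962 to 1053 CPM in WT HSC. Over 29 stem cell genes, they were 269.9 to 349.5 CPM, 184 to 296 CPM, 1964 to 2149 CPM and 1185 to 1266 CPM in the same groups, so that granule genes were high in the cells labelled preGM and stem cell genes in those labelled HSC.

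Hoxa10, Meis1, Flt3 and the surface receptor gene Cd27 rose in MLL-ENL preGM beyond any rise in MLL-ENL HSC, whereas genes of late neutrophils, of monocytes and of MHC class II fell in MLL-ENL preGM and did not fall alike in MLL-ENL HSC. In all, 169 of 15707 tested genes (1.08%) had a positive interaction at an adjusted p under 0.05 (edgeR quasi-likelihood test, Benjamini-Hochberg over all tested genes) and 323 (2.06%) a negative one. Only log2 interactions of at least 1.16 above 0 and 1.18 below 0 were called. Of the comparisons that make up the interaction, MLL-ENL against WT preGM called 581 genes higher (3.7%) and 482 lower (3.07%), and MLL-ENL against WT HSC called 501 higher (3.19%) and 146 lower (0.93%). Rises made up 54.7% of the preGM calls and 77.4% of the HSC calls, and 74.9% and 87.9% with scaling by library size alone, which moved the median of all genes to 0.41 in preGM and 0.21 in HSC. The preGM calls numbered 566 without WT preGM replicate 1 and 1129 without both libraries that stood apart. The HSC calls fell to between 312 and 331 when an MLL-ENL HSC library was left out, and to 392 and 407 for replicates 1 and 2 of WT HSC. The HSC calls numbered 1280 with replicate 1 of MLL-ENL preGM left out and 974 with replicate 2 of WT preGM left out. The groups share 1 estimate of the spread in the fit, and without both of these preGM libraries the HSC calls numbered 3369, of which 48.1% were rises. The libraries of MLL-ENL and WT did not overlap for 27.8% of tested genes in preGM and for 34.8% in HSC.

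By calls in the fit of all 12 libraries, the positive side was mostly a rise in preGM. Of its 169 genes, 100 rose in preGM with no call in HSC, 27 fell in HSC with no call in preGM, 12 rose in preGM and fell in HSC, 7 rose in both cell types and 23 were called in neither. On the negative side, 160 of 323 genes fell in preGM with no call in HSC, 109 rose in HSC with no call in preGM, 27 fell in preGM and rose in HSC, 1 fell in both and 26 were called in neither. No call does not mean no response, since HSC calls numbered 647 in this fit and 3369 without both preGM libraries that stood apart. The HSC libraries of MLL-ENL and WT did not overlap for 115 of the 169 genes and 227 of the 323, against 34.8% of all tested genes. The choice of these genes by their interaction favours that. The median gene of the positive side had log2 changes of 1.65 in preGM and -0.54 in HSC, that of the negative side -1.53 and 1.31. The responses of preGM and HSC had opposite signs for 127 of the 169 genes (75.1%) and 284 of the 323 (87.9%), against 41.0% of all tested genes, which follows in part from how the interaction is computed. Over all 15707 tested genes, which share libraries and are not independent, Pearson's r of the preGM with the HSC response was 0.144 and Spearman's rho 0.232.

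**Figure D1:**
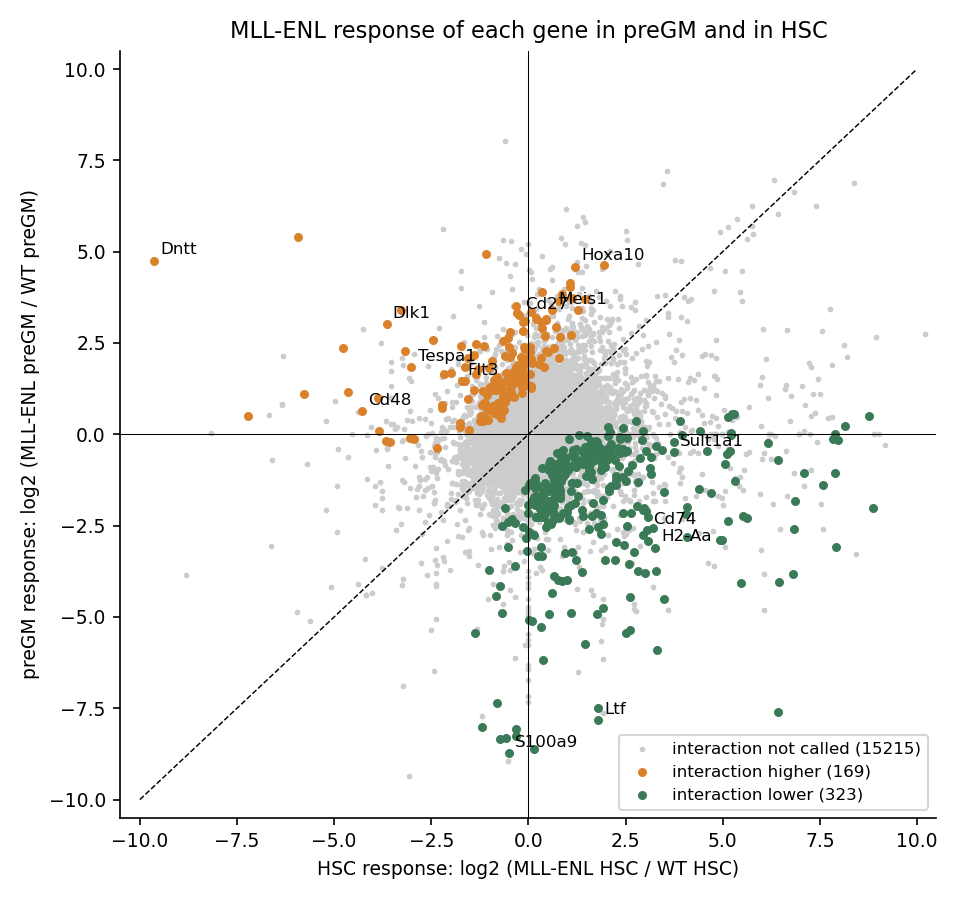
Each point is 1 of 15707 tested genes, with its log2 change in HSC on the horizontal axis and in preGM on the vertical axis. Orange points are the 169 genes with a positive interaction, green points the 323 with a negative one, and the dashed line marks equal responses. Dntt, with no counts in MLL-ENL HSC, is drawn at its fitted value, which is not a bound.

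Counts of called genes depended on which libraries entered the fit. Without both preGM libraries that stood apart, 1064 genes (6.73%) were higher and 862 (5.45%) lower, among them 165 of the 169 and 312 of the 323. Fewer genes were higher without WT preGM replicate 1 (90) or MLL-ENL HSC replicate 1, 2 or 3 (107, 97 and 103), and fewer lower without WT preGM replicate 1 (209) or MLL-ENL HSC replicate 2 (213). DESeq2 called 407 higher (2.56%) and 679 lower (4.27%). With limma on log2 RPKM values, 134 (0.853%) and 388 (2.47%) were called at a pseudocount of 0.1, and 140 (0.891%) and 574 (3.65%) at a pseudocount of 1. HSC libraries were shallower than preGM libraries, and with all libraries thinned to the smallest depth 169 genes were higher and 301 lower. WT HSC averaged under 1 CPM for 108 of the 323 genes (33.4%), and 20 of the 323 had a group with no counts at all. For such genes a group at 0 was set to a floor of 3 counts per library, which gave a median interaction of -2.73 on the negative side, against -2.82 with fitted values.

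Of genes known to be bound and kept active by MLL fusions, a part rose further in preGM than in HSC. Of 24 listed, 23 were tested, and the median was 1.30, against 0.07 over all tested genes. Against 1.08% and 2.06% of all tested genes, 9 of the 23 had a positive interaction and 0 a negative one. The 9 were Hoxa7, Hoxa9, Hoxa10, Meis1, Mecom, Mef2c, Flt3, Eya1 and Tcf4. Within preGM, 15 of the 23 rose and 0 fell, against 3.7% and 3.07% of all tested genes. Within HSC 3 rose and 2 fell, against 3.19% and 0.93%. Without both libraries that stood apart, 14 higher and 0 lower were called, whereas limma on log2(RPKM + 1) called 4 higher and 1 lower, with a median of 0.58. The list was drawn up with earlier results of these data known.

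Hoxa10, a homeobox factor gene of the Hoxa cluster (chromosome 6, 52231197 to 52240854 on GRCm38), was at 9.56, 9.46 and 6.87 CPM in MLL-ENL preGM, against 0.179, 0.559 and 0.37 CPM in WT preGM. In HSC, Hoxa10 was at 26.5, 28.8 and 31.2 CPM in MLL-ENL HSC, against 14.98, 11.2 and 11.4 CPM in WT HSC. The groups did not overlap in either cell type, and WT preGM stood lowest by far. The log2 changes were 4.59 ± 0.35 in preGM and 1.20 ± 0.28 in HSC (SE), and the interaction 3.39 ± 0.44 (adjusted p = 0.000429). Hoxa10 missed the threshold with limma on log2(RPKM + 1) (adjusted p = 0.399). Meis1, which encodes the DNA-binding partner of HOXA proteins (chromosome 11, 18879817 to 19018985), was at 185, 57.6 and 56.1 CPM in MLL-ENL preGM, against 9.05, 8.94 and 10.2 CPM in WT preGM. In HSC, Meis1 was at 216, 202 and 206 CPM in MLL-ENL HSC, against 136, 139.5 and 134 CPM in WT HSC. All MLL-ENL libraries lay above the WT libraries of their cell type, and MLL-ENL preGM replicate 1 stood far above the other libraries of its group. Its interaction was 2.80 ± 0.52 (adjusted p = 0.00617), and 1.99 without that library (adjusted p = 0.00028). Meis1 missed the threshold with limma on log2(RPKM + 1) (adjusted p = 0.126).

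Hoxa9, the neighbouring homeobox gene (chromosome 6, 52223100 to 52231089), was at 45.3, 36.7 and 36.1 CPM in MLL-ENL preGM, against 10.1, 8.75 and 9.14 CPM in WT preGM. In HSC, Hoxa9 was at 43.4, 50.1 and 49.2 CPM in MLL-ENL HSC, against 33.5, 26.9 and 23.0 CPM in WT HSC. MLL-ENL was above WT in every library of both cell types, by a larger factor in preGM. Its interaction of 1.30 ± 0.30 passed at adjusted p = 0.0245 and in 12 of 24 alternatives. The Hoxa9 call did not hold when 1 library was left out, namely replicate 1 or 3 of WT preGM, any of MLL-ENL HSC, or 1 or 2 of WT HSC (adjusted p = 0.0533 to 0.0877). Hoxa9 also missed the threshold with scaling by library size, limma on log2(RPKM + 0.1), log2(RPKM + 1), every exon interval counted or a replicate block (adjusted p = 0.0512 to 0.119). Hoxa7, whose exons overlap another gene over 20.4% of their bases, averaged 71.8 ± 16.6 CPM in MLL-ENL preGM and 11.2 ± 0.612 CPM in WT preGM. In HSC, Hoxa7 averaged 56.9 ± 0.791 CPM in MLL-ENL HSC and 42.0 ± 8.84 CPM in WT HSC (SD, n = 3; interaction 2.24 ± 0.33, adjusted p = 0.00117). Both genes rose in preGM, and neither passed in HSC (adjusted p = 0.0533 and 0.33). The other 3 called members were chosen for their values. Eya1, a transcriptional coactivator with a phosphatase domain, averaged 9.18 ± 5.10 CPM in MLL-ENL preGM and 0.538 ± 0.269 CPM in WT preGM. In HSC, Eya1 averaged 14.98 ± 2.30 CPM in MLL-ENL HSC and 7.13 ± 2.77 CPM in WT HSC (SD, n = 3; interaction 3.06 ± 0.62, adjusted p = 0.0108). Eya1 missed the threshold with limma on log2(RPKM + 0.1) or log2(RPKM + 1) (adjusted p = 0.0906 to 0.609). Mef2c, a transcription factor gene of early progenitors, averaged 101 ± 19.0 CPM in MLL-ENL preGM and 41.0 ± 6.26 CPM in WT preGM. In HSC, Mef2c averaged 152 ± 9.59 CPM in MLL-ENL HSC and 172 ± 30.7 CPM in WT HSC (interaction 1.48 ± 0.33, adjusted p = 0.021). The Mef2c call did not hold when 1 library was left out, namely replicate 1 of WT preGM, any of MLL-ENL HSC, or 1 or 2 of WT HSC (adjusted p = 0.0567 to 0.0759). Mef2c also missed the threshold with scaling by library size, limma on log2(RPKM + 0.1) or log2(RPKM + 1) (adjusted p = 0.0511 to 0.0552). Tcf4, a basic helix-loop-helix factor gene, averaged 118 ± 12.8 CPM in MLL-ENL preGM and 38.0 ± 10.4 CPM in WT preGM. In HSC, Tcf4 averaged 119 ± 5.27 CPM in MLL-ENL HSC and 116 ± 19.2 CPM in WT HSC (interaction 1.598 ± 0.35, adjusted p = 0.0167). The Tcf4 call did not hold when 1 library was left out, namely any of MLL-ENL HSC, or 2 of WT HSC (adjusted p = 0.0533 to 0.0581). Tcf4 also missed the threshold with scaling by library size (adjusted p = 0.0539). With MLL-ENL, Tcf4 and Eya1 in preGM reached the order of their levels in HSC.

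Mecom, which encodes the stem cell zinc finger factor EVI1 (chromosome 3, 29951296 to 30548008), was at 8.79, 5.30 and 6.68 CPM in MLL-ENL preGM, against 0.567, 0.652 and 0.398 CPM in WT preGM. In HSC, Mecom was at 116, 99.6 and 112 CPM in MLL-ENL HSC, against 43.1, 42.9 and 34.1 CPM in WT HSC. It rose in both cell types and stayed far lower in preGM than in HSC. Its interaction was 2.25 ± 0.37 (adjusted p = 0.0025), but on log2(RPKM + 1), where low values are compressed, it was -0.797 (adjusted p = 0.0753), and on log2(RPKM + 0.1) it was not called (adjusted p = 0.373). Flt3, a receptor tyrosine kinase gene of early progenitors (chromosome 5, 147330741 to 147400489), was at 38.7, 19.7 and 17.4 CPM in MLL-ENL preGM, against 9.29, 8.80 and 9.48 CPM in WT preGM. In HSC, Flt3 was at 5.70, 3.90 and 3.501 CPM in MLL-ENL HSC, against 12.96, 15.1 and 15.3 CPM in WT HSC. It thus moved in opposite directions, with no overlap of groups, and its interaction of 3.18 ± 0.43 (adjusted p = 0.000628) was called in all 24 alternatives. Pbx3, a further partner of HOX proteins, rose in both cell types (1.29 ± 0.26 in preGM and 2.09 ± 0.26 in HSC), with an interaction of -0.79 ± 0.36 that did not pass (adjusted p = 0.287).

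**Figure D2:**
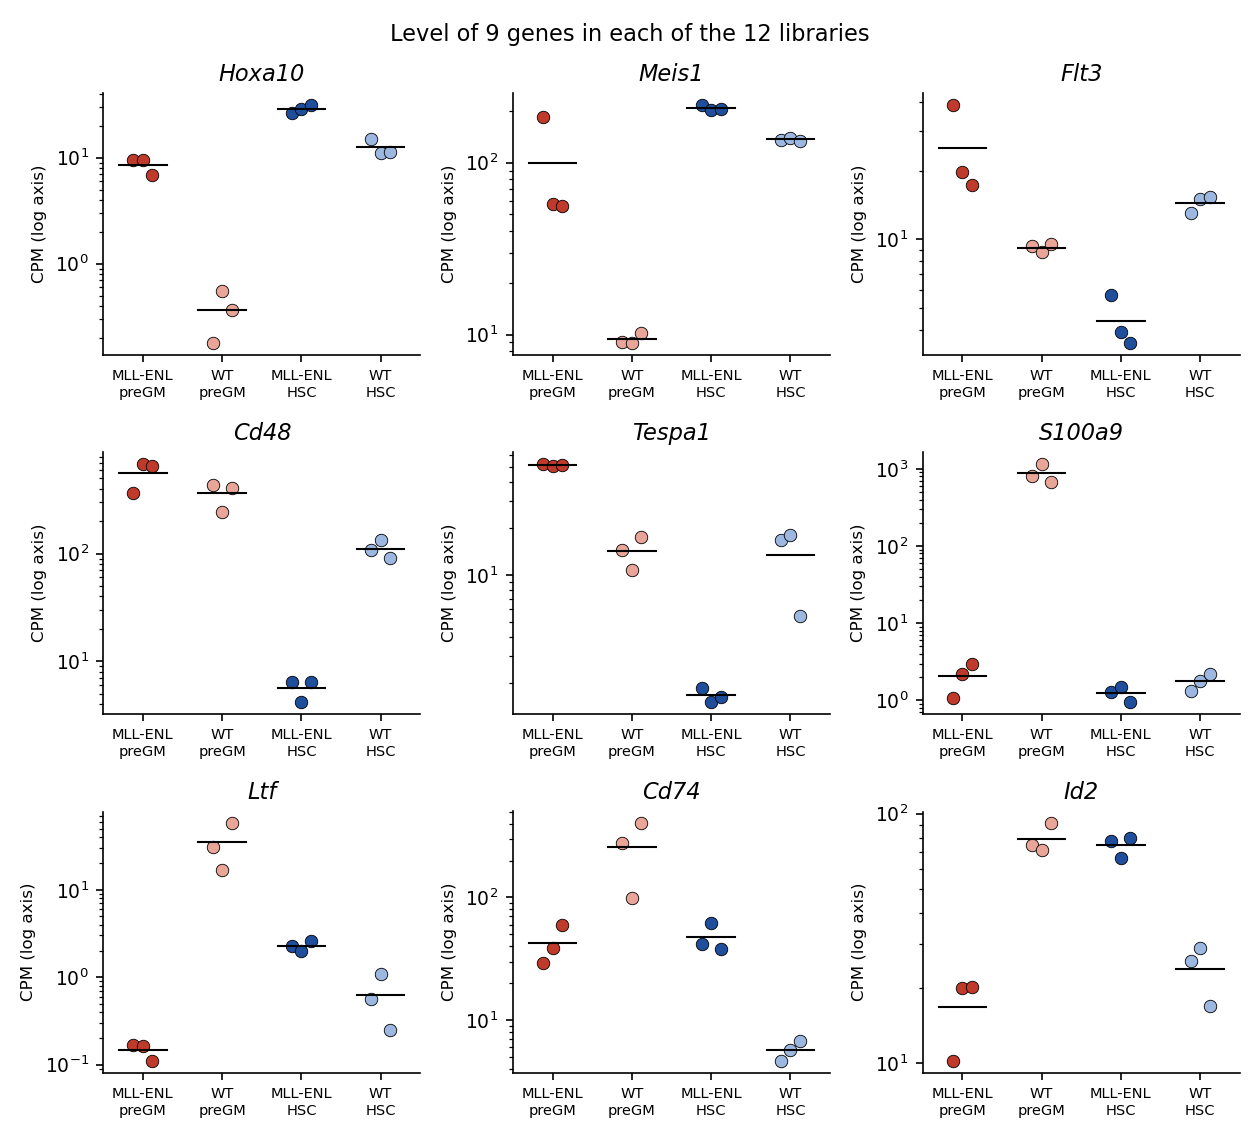
Level of 9 genes in CPM on a logarithmic axis, with 1 point per library and a bar at the mean of the 3 libraries of a group. Hoxa10 and Meis1 are lowest in WT preGM, Flt3, Cd48 and Tespa1 are lowest in MLL-ENL HSC, S100a9 is high in WT preGM alone, and Cd74 and Id2 are lower in MLL-ENL preGM than in WT preGM and higher in MLL-ENL HSC than in WT HSC.

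Interactions of stem cell genes were called in both directions, against 1.08% higher and 2.06% lower over all tested genes. Of 29 listed and tested, 5 had a positive interaction (Mecom, Fgd5, Slamf1, Meis1 and Emcn) and 4 a negative one (Mllt3, Ly6a, Sult1a1 and Nupr1), with a median of 0.39, or -0.04 and -0.62 with limma at pseudocounts of 0.1 and 1. At these pseudocounts limma called 1 higher and 4 lower, and 0 higher and 10 lower. The median was between 0.14 and 0.44 with 1 library left out, lowest without MLL-ENL preGM replicate 2, and 6 higher and 4 lower were called without both libraries that stood apart. Calls within each cell type were nearly all rises. Within preGM 12 rose and 1 fell, against 3.7% and 3.07% of all tested genes. Within HSC 9 rose and 0 fell, against 3.19% and 0.93%. Sult1a1, a sulfotransferase gene (chromosome 7, 126672865 to 126676432), was at 0.282, 0.13 and 0.248 CPM in MLL-ENL preGM, against 0.239, 0.14 and 0.541 CPM in WT preGM. In HSC, Sult1a1 was at 60.7, 78.5 and 70.7 CPM in MLL-ENL HSC, against 2.29, 7.97 and 5.35 CPM in WT HSC. It was high in MLL-ENL HSC alone and near the limit of counting in preGM (interaction -4.24 ± 0.70, adjusted p = 0.00277). Nupr1, a small stress-induced nuclear protein gene, averaged 75.5 ± 32.6 CPM in MLL-ENL preGM and 109 ± 44.9 CPM in WT preGM. In HSC, Nupr1 averaged 131 ± 10.7 CPM in MLL-ENL HSC and 25.5 ± 4.50 CPM in WT HSC (SD, n = 3; interaction -2.89 ± 0.48, adjusted p = 0.00295). Mllt3, which encodes AF9, a relative of ENL and another fusion partner of MLL, averaged 7.94 ± 0.444 CPM in MLL-ENL preGM and 10.7 ± 2.43 CPM in WT preGM. In HSC, Mllt3 averaged 119 ± 6.002 CPM in MLL-ENL HSC and 63.6 ± 7.47 CPM in WT HSC (SD, n = 3; interaction -1.33 ± 0.31, adjusted p = 0.0243). The Mllt3 call did not hold when 1 library was left out, namely replicate 3 of MLL-ENL preGM, 3 of WT preGM, any of MLL-ENL HSC, or 2 or 3 of WT HSC (adjusted p = 0.0538 to 0.077). Mllt3 also missed the threshold with scaling by library size, limma on log2(RPKM + 0.1) or a replicate block (adjusted p = 0.0512 to 0.0813). Fgd5, a guanine nucleotide exchange factor gene of stem cells, was low throughout preGM, at 0.282, 0.162 and 0.193 CPM in MLL-ENL preGM, against 0.0299, 0.0466 and 0 CPM in WT preGM. WT preGM was under the floor of 3 counts per library there, and the fitted interaction of 3.21 ± 0.75 is no bound (adjusted p = 0.0249). The Fgd5 call did not hold when 1 library was left out, namely replicate 1 of MLL-ENL preGM, 1 or 3 of WT preGM, any of MLL-ENL HSC, or 2 of WT HSC (adjusted p = 0.0509 to 0.103). Fgd5 also missed the threshold with limma on log2(RPKM + 0.1), log2(RPKM + 1) or libraries thinned to 1 depth (adjusted p = 0.192 to 0.98). Emcn, the endomucin gene, averaged 1.76 ± 0.449 CPM in MLL-ENL preGM and 0.229 ± 0.0437 CPM in WT preGM. In HSC, Emcn averaged 32.9 ± 5.66 CPM in MLL-ENL HSC and 19.9 ± 6.95 CPM in WT HSC (interaction 2.23 ± 0.49, adjusted p = 0.0172). The Emcn call did not hold when 1 library was left out, namely replicate 1 or 3 of WT preGM, or 3 of MLL-ENL HSC (adjusted p = 0.0507 to 0.0684). Emcn also missed the threshold with limma on log2(RPKM + 0.1) or log2(RPKM + 1) (adjusted p = 0.48 to 0.496). On log2(RPKM + 1) the Emcn value was -0.451. Both stayed far below their levels in HSC. Of 16 MLL, ENL and elongation complex genes, Mllt3 was the only member called, and the median was 0.44, or 0.24 without MLL-ENL preGM replicate 1. With both libraries that stood apart left out, 3 of these 16 were higher and 1 lower, and 0 were called with a replicate block.

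Of the 8 genes for antigens used in the sorts, 3 had a positive interaction and 2 a negative one, as also without both libraries that stood apart. With all libraries, the shares over all tested genes were 1.08% and 2.06%. Cells were sorted on these antigens before the culture, and the RNA levels are those after it. Cd48, whose protein marks cells that have left the stem cell state (chromosome 1, 171682009 to 171705258), was at 366, 676 and 652 CPM in MLL-ENL preGM, against 437, 246 and 408 CPM in WT preGM. In HSC, Cd48 was at 6.39, 4.18 and 6.44 CPM in MLL-ENL HSC, against 108, 134 and 91.4 CPM in WT HSC. All MLL-ENL HSC libraries lay far below the WT HSC libraries, while the preGM groups overlapped, and the interaction was 4.93 ± 0.47 (adjusted p = 1.90e-05). Slamf1, the CD150 gene, averaged 1.27 ± 0.478 CPM in MLL-ENL preGM and 0.139 ± 0.0484 CPM in WT preGM. In HSC, Slamf1 averaged 14.7 ± 2.32 CPM in MLL-ENL HSC and 12.8 ± 5.02 CPM in WT HSC (SD, n = 3; interaction 2.999 ± 0.58, adjusted p = 0.00791). Slamf1 missed the threshold with limma on log2(RPKM + 0.1) or log2(RPKM + 1) (adjusted p = 0.156 to 0.961). Ly6a, the Sca1 gene, moved the other way, with 5.04, 6.401 and 8.33 CPM in MLL-ENL preGM, against 21.0, 28.0 and 20.2 CPM in WT preGM. In HSC, Ly6a was at 202, 237 and 199 CPM in MLL-ENL HSC, against 125, 141 and 150.3 CPM in WT HSC (interaction -2.42 ± 0.34, adjusted p = 0.000813). Itga2b, the CD41 gene, averaged 15.4 ± 11.8 CPM in MLL-ENL preGM and 3.82 ± 0.363 CPM in WT preGM. In HSC, Itga2b averaged 37.0 ± 5.51 CPM in MLL-ENL HSC and 40.9 ± 3.78 CPM in WT HSC (interaction 2.16 ± 0.53, adjusted p = 0.0354). The Itga2b call did not hold when 1 library was left out, namely any of WT preGM, any of MLL-ENL HSC, or any of WT HSC (adjusted p = 0.053 to 0.111). Itga2b also missed the threshold with scaling by library size, limma on log2(RPKM + 0.1), log2(RPKM + 1) or a replicate block (adjusted p = 0.0512 to 0.249). Fcgr3, a CD16/32 gene, averaged 36.03 ± 11.5 CPM in MLL-ENL preGM and 208 ± 62.0 CPM in WT preGM. In HSC, Fcgr3 averaged 1.08 ± 0.143 CPM in MLL-ENL HSC and 1.21 ± 0.652 CPM in WT HSC (interaction -2.40 ± 0.54, adjusted p = 0.0214). The Fcgr3 call did not hold when 1 library was left out, namely replicate 1 or 3 of WT preGM, 1 or 2 of MLL-ENL HSC, or 1 or 2 of WT HSC (adjusted p = 0.052 to 0.0729). Kit, Eng (CD105) and Fcgr2b, the other CD16/32 gene, were not called (interactions 0.73 ± 0.52, 0.11 ± 0.40 and 0.57 ± 0.48; adjusted p = 0.542, 0.936 and 0.617).

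Several surface genes rose in preGM with no call in HSC. Cd27, a TNF receptor family gene of stem cells and lymphoid progenitors (chromosome 6, 125232622 to 125237010), was at 63.6, 113 and 101 CPM in MLL-ENL preGM, against 11.2, 6.70 and 10.96 CPM in WT preGM. In HSC, Cd27 was at 97.6, 108 and 81.8 CPM in MLL-ENL HSC, against 119, 114 and 109 CPM in WT HSC. MLL-ENL preGM lay near both HSC groups and WT preGM far below them (interaction 3.51 ± 0.38, adjusted p = 6.93e-05). Others of this class, chosen after their values were seen, were Cd34, a sialomucin gene of progenitors (interaction 3.20 ± 0.39), Myct1 (3.27 ± 0.35), and the adhesion receptor genes Adgrl4 (3.18 ± 0.41) and Adgrg1 (2.89 ± 0.57), with adjusted p from 6.21e-05 to 0.00965. Cd34 averaged 242 ± 88.6 CPM in MLL-ENL preGM and 41.4 ± 8.27 CPM in WT preGM. In HSC, Cd34 averaged 159 ± 10.6 CPM in MLL-ENL HSC and 251 ± 32.9 CPM in WT HSC (SD, n = 3). Myct1, an endothelial and stem cell gene, averaged 28.9 ± 6.66 CPM in MLL-ENL preGM and 2.88 ± 0.627 CPM in WT preGM. In HSC, Myct1 averaged 122 ± 6.13 CPM in MLL-ENL HSC and 116 ± 17.7 CPM in WT HSC (SD, n = 3). All 5 genes were called in all 24 alternatives, which their choice by value favours.

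Summed levels of genes of late neutrophil maturation, which encode the proteins of secondary and tertiary granules and of the cytosol of neutrophils, fell in preGM and not in HSC. Of 24 listed, 22 were tested, 0 had a positive and 13 a negative interaction, against 2.06% of all tested genes, and 20 of the 22 lay below 0. The median was -5.10, or -4.57 with groups at 0 set to the floor and -2.55 with limma on log2(RPKM + 1). In preGM 17 of the 22 fell and 0 rose, and in HSC 1 rose and 0 fell. Several members passed the filter on low counts through WT preGM alone, so that they had to differ. These counts of members therefore support no statement on the list. Summed over the list, levels were 340.2 to 523 CPM in MLL-ENL preGM, against 6438 to 7385 CPM in WT preGM, and 426 to 475 CPM in MLL-ENL HSC, against 410.4 to 427 CPM in WT HSC. In such bulk samples, fewer cells of a type and less RNA per cell cannot be told apart.

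S100a9, which with S100a8 forms the calcium-binding protein calprotectin of neutrophils (chromosome 3, 90692632 to 90695721), was at 1.07, 2.21 and 2.95 CPM in MLL-ENL preGM, against 807, 1143 and 665 CPM in WT preGM. In HSC, S100a9 was at 1.30, 1.47 and 0.955 CPM in MLL-ENL HSC, against 1.34, 1.77 and 2.22 CPM in WT HSC. MLL-ENL preGM lay within a few CPM of the HSC groups, and WT preGM stood alone. The interaction was -8.21 ± 0.56 (adjusted p = 2.10e-06). S100a8 was at 4.14, 10.6 and 11.4 CPM in MLL-ENL preGM, against 2423, 3619.7 and 1946 CPM in WT preGM. In HSC, S100a8 was at 4.02, 4.42 and 3.996 CPM in MLL-ENL HSC, against 3.86, 4.12 and 7.57 CPM in WT HSC (interaction -7.94 ± 0.61, adjusted p = 2.42e-06). Ngp, a neutrophil granule protein gene of the cystatin type, was at 0.922, 1.85 and 2.37 CPM in MLL-ENL preGM, against 640.3, 375 and 637 CPM in WT preGM. In HSC, Ngp was at 0.823, 0.517 and 0.955 CPM in MLL-ENL HSC, against 1.34, 0.996 and 1.54 CPM in WT HSC (interaction -7.61 ± 0.56, adjusted p = 2.42e-06). All 3 genes had WT preGM far above the other groups.

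Ltf, the lactoferrin gene, was at 0.169, 0.162 and 0.11 CPM in MLL-ENL preGM, against 30.6, 16.7 and 57.5 CPM in WT preGM. In HSC, Ltf was at 2.25, 1.99 and 2.58 CPM in MLL-ENL HSC, against 0.559, 1.09 and 0.246 CPM in WT HSC. Its groups did not overlap in either cell type, with a fall in preGM and, in HSC, levels above WT that did not pass (adjusted p = 0.0512). Its interaction was -9.63 ± 0.74 (adjusted p = 2.42e-06). Camp, the gene of the cathelicidin antimicrobial peptide, averaged 0.174 ± 0.0484 CPM in MLL-ENL preGM and 71.9 ± 29.2 CPM in WT preGM. In HSC, Camp averaged 0.233 ± 0.14 CPM in MLL-ENL HSC and 0.203 ± 0.102 CPM in WT HSC (SD, n = 3; interaction -8.76 ± 0.76, adjusted p = 9.64e-06). The other called members were Lcn2, Chil3, Lyz2, Cybb, Pglyrp1, Ifitm6, Fpr1 and Mcemp1. In the fit without both preGM libraries that stood apart, 0 higher and 15 lower were called.

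The starts of these genes are shown because the genes fell together in preGM and because C/EBP factors, which drive granule genes, recognise sites of the type TTNNGNAA. The windows are 250 bases before to 50 after the start in RefSeq (GRCm38.p6), written 5′ to 3′ on the gene's strand, with matches on either strand in capitals. They are chr3:90668821-90669120 on the plus strand for S100a8, chr3:90695672-90695971 on the minus strand for S100a9 and chr9:110419558-110419857 on the plus strand for Ngp.
S100a8: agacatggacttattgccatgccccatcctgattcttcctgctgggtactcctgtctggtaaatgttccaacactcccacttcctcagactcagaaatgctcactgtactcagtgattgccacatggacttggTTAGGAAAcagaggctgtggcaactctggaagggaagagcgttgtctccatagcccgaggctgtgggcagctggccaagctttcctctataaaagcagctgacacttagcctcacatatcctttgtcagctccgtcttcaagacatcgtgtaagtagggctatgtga
S100a9: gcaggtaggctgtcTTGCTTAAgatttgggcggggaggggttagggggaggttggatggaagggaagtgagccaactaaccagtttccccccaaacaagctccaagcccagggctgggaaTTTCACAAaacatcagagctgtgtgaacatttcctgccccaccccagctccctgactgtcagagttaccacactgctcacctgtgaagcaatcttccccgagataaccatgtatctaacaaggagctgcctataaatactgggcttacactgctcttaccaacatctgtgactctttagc
Ngp: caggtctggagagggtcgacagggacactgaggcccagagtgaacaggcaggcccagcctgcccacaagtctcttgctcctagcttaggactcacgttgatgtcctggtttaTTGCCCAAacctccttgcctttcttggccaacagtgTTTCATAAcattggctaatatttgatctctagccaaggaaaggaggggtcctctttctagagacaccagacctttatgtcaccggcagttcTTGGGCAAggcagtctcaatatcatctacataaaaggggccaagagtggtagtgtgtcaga
S100a8 holds 1 match, S100a9 2 and Ngp 3, the window of Ltf holds 2 and that of Camp 0, and matches may overlap one another or other motifs. Of 32851 mouse promoters of the same length, 40.7% hold at least 1 match.

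Primary granule genes, which are made earlier in the lineage, mostly fell in preGM too. Against 2.06% and 1.08% of all tested genes, 3 of 12 tested had a negative interaction (Elane, Fcnb and Mgst1) and 0 a positive one. Their median was -1.22. In preGM, 9 of the 12 fell, and in HSC 1 fell, against 3.07% and 0.93% of all tested genes. Elane, the neutrophil elastase gene (chromosome 10, 79886247 to 79888215), was at 1681, 2630.2 and 2509 CPM in MLL-ENL preGM, against 12717, 13249 and 9809 CPM in WT preGM. In HSC, Elane was at 22.2, 19.7 and 16.2 CPM in MLL-ENL HSC, against 17.6, 28.4 and 38.1 CPM in WT HSC. The preGM groups did not overlap and those of HSC did (interaction -1.86 ± 0.47, adjusted p = 0.0423). The Elane call did not hold when 1 library was left out, namely replicate 2 or 3 of MLL-ENL preGM, 1 or 3 of WT preGM, any of MLL-ENL HSC, or 1 or 2 of WT HSC (adjusted p = 0.0522 to 0.126). Elane also missed the threshold with a replicate block (adjusted p = 0.0605). Mgst1, a microsomal glutathione transferase gene, averaged 69.0 ± 27.2 CPM in MLL-ENL preGM and 345 ± 76.1 CPM in WT preGM. In HSC, Mgst1 averaged 30.7 ± 2.98 CPM in MLL-ENL HSC and 41.0 ± 4.29 CPM in WT HSC (SD, n = 3; interaction -1.91 ± 0.42, adjusted p = 0.0175). The Mgst1 call did not hold when 1 library was left out, namely replicate 1 of MLL-ENL HSC (adjusted p = 0.0549). In all, 1 of the 12 was called without MLL-ENL HSC replicate 1 or without replicate 2. Fcnb, a ficolin gene, averaged 0.2 ± 0.128 CPM in MLL-ENL preGM and 61.9 ± 20.4 CPM in WT preGM, and lay at or under the floor of 3 counts per library in both HSC groups, so no fold is given there. The Fcnb call did not hold without MLL-ENL HSC replicate 2 (adjusted p = 0.0589). Mpo, the myeloperoxidase gene, did not follow, at 12105, 5351 and 6407 CPM in MLL-ENL preGM, against 5738, 2432 and 7586 CPM in WT preGM (interaction 1.43 ± 0.62, adjusted p = 0.257). Without both libraries that stood apart, 1 higher and 8 lower were called.

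Of 17 monocyte and macrophage genes, 16 were tested, 6 had a negative and 0 a positive interaction, and the median was -1.94 (-1.53 with groups at 0 set to the floor, -1.18 with limma on log2(RPKM + 1)). Over all tested genes 2.06% had a negative interaction, but members near 0 in HSC passed the filter on low counts through preGM alone. These counts of members therefore support no statement on the list. With both libraries that stood apart left out, 1 higher and 7 lower were called, and 3 lower with replicate 3 of MLL-ENL HSC or replicate 2 of WT HSC left out. Lgals3, which encodes galectin 3, was at 9.07, 19.2 and 16.6 CPM in MLL-ENL preGM, against 228, 287 and 199 CPM in WT preGM. In HSC, Lgals3 was at 0.855, 2.51 and 1.31 CPM in MLL-ENL HSC, against 0.391, 1.36 and 0.492 CPM in WT HSC (interaction -4.99 ± 0.63, adjusted p = 0.000345). Ly6c2, a surface antigen gene of monocytes, averaged 75.5 ± 30.2 CPM in MLL-ENL preGM and 919 ± 227 CPM in WT preGM. In HSC, Ly6c2 averaged 1.85 ± 0.352 CPM in MLL-ENL HSC and 2.37 ± 0.625 CPM in WT HSC (SD, n = 3; interaction -3.25 ± 0.50, adjusted p = 0.00161). Both were far lower in MLL-ENL than in WT preGM and low in HSC. The lysosomal protease gene Ctss (-2.49 ± 0.51) and the membrane protein gene Ms4a6c (-2.09 ± 0.47) were called too. Ctss missed the threshold with limma on log2(RPKM + 0.1) or log2(RPKM + 1) (adjusted p = 0.0633 to 0.0701). The Ms4a6c call did not hold when 1 library was left out, namely replicate 1 or 3 of MLL-ENL HSC, or 2 of WT HSC (adjusted p = 0.0535 to 0.0623). Mpeg1, which encodes the pore-forming perforin 2, averaged 3.02 ± 1.53 CPM in MLL-ENL preGM and 15.5 ± 4.31 CPM in WT preGM, and had no counts in WT HSC. The Mpeg1 call did not hold when 1 library was left out, namely replicate 3 of MLL-ENL preGM, any of WT preGM, 2 or 3 of MLL-ENL HSC, or any of WT HSC (adjusted p = 0.0531 to 0.195).

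Of 16 mast cell, basophil and eosinophil genes, 12 were tested, 3 were lower and 1 higher, and 4 lower and 1 higher without both libraries that stood apart. Most members were near 0 in HSC and passed the filter on low counts through preGM alone, and 3 of the 12 had a group with no counts, so that these counts support no statement on the list. Both basophil protease genes listed fell in preGM. Prss34 was at 0.753, 2.31 and 1.24 CPM in MLL-ENL preGM, against 146, 113 and 432 CPM in WT preGM. In HSC, Prss34 was at 0.19, 0.119 and 0.46 CPM in MLL-ENL HSC, against 0.671, 0.181 and 0.554 CPM in WT HSC (interaction -6.55 ± 1.03, adjusted p = 0.00196). Mcpt8 averaged 68.8 ± 31.3 CPM in MLL-ENL preGM and 1213 ± 423 CPM in WT preGM. In HSC, Mcpt8 averaged 1.70 ± 0.474 CPM in MLL-ENL HSC and 2.83 ± 1.48 CPM in WT HSC (SD, n = 3; interaction -3.42 ± 0.63, adjusted p = 0.00577). Cpa3, a mast cell carboxypeptidase gene, had an interaction of -3.01 ± 0.65 (adjusted p = 0.0161). The Cpa3 call did not hold when 1 library was left out, namely replicate 1 of MLL-ENL HSC, or 2 of WT HSC (adjusted p = 0.0525 to 0.0557). Cpa3 also missed the threshold with limma on log2(RPKM + 0.1) or log2(RPKM + 1) (adjusted p = 0.0528 to 0.0907). Fcer1a, a chain of the IgE receptor, moved the other way, with 20.5 ± 2.30 CPM in MLL-ENL preGM and 22.5 ± 5.50 CPM in WT preGM. In HSC, Fcer1a averaged 0.238 ± 0.0895 CPM in MLL-ENL HSC and 1.87 ± 0.722 CPM in WT HSC (SD, n = 3; interaction 2.82 ± 0.50, adjusted p = 0.00444). The summed level of the list was 303 to 345 CPM in MLL-ENL preGM, 1484 to 2543 CPM in WT preGM, 5.21 to 11.96 CPM in MLL-ENL HSC and 7.56 to 10.8 CPM in WT HSC. Whether such cells take part in the other differences was not tested.

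Several MHC class II genes fell in preGM and rose in HSC. Their products present antigen on dendritic cells, macrophages and B cells, and Cd74 encodes the invariant chain that escorts them. Against 2.06% and 1.08% of all tested genes, 5 of 11 genes tested had a negative interaction and 0 a positive one. Their median was -2.58 (-1.30 with limma on log2(RPKM + 1)). In the fit without both preGM libraries that stood apart, 1 higher and 6 lower were called. In preGM 5 fell, and in HSC 5 rose, against 3.07% and 3.19% of all tested genes. H2-Aa (chromosome 17, 34282744 to 34287823) was at 4.53, 6.76 and 9.52 CPM in MLL-ENL preGM, against 45.0, 60.4 and 72.9 CPM in WT preGM. In HSC, H2-Aa was at 9.81, 11.03 and 7.11 CPM in MLL-ENL HSC, against 0.391, 2.04 and 0.369 CPM in WT HSC. The groups did not overlap in either cell type (interaction -6.35 ± 0.67, adjusted p = 5.34e-05). Cd74 was at 29.4, 39.0 and 59.3 CPM in MLL-ENL preGM, against 279, 99.6 and 402 CPM in WT preGM. In HSC, Cd74 was at 42.0, 61.7 and 37.7 CPM in MLL-ENL HSC, against 4.64, 5.66 and 6.77 CPM in WT HSC (interaction -5.66 ± 0.61, adjusted p = 6.21e-05). H2-Eb1 averaged 3.04 ± 1.18 CPM in MLL-ENL preGM and 28.6 ± 9.33 CPM in WT preGM. In HSC, H2-Eb1 averaged 13.6 ± 1.02 CPM in MLL-ENL HSC and 2.14 ± 2.16 CPM in WT HSC (SD, n = 3; interaction -5.94 ± 0.87). H2-Ab1 averaged 24.4 ± 7.45 CPM in MLL-ENL preGM and 49.8 ± 10.1 CPM in WT preGM. In HSC, H2-Ab1 averaged 25.2 ± 3.73 CPM in MLL-ENL HSC and 8.61 ± 1.88 CPM in WT HSC (interaction -2.58 ± 0.39). Their adjusted p were 0.00112 and 0.00137. H2 genes have similar copies between which reads may be shared.

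H2-Aa, Cd74, H2-Eb1 and H2-Ab1 all fell in preGM and rose in HSC, each interaction call holding in all 24 alternatives. Cst3, a cystatin gene of dendritic cells and macrophages, had an interaction of -1.87 ± 0.45 (adjusted p = 0.0292). The Cst3 call did not hold when 1 library was left out, namely replicate 1 of WT preGM, any of MLL-ENL HSC, or any of WT HSC (adjusted p = 0.0607 to 0.0845). Some further members of the list, looked up after these values were seen, were low in HSC. There Ciita and Batf3 averaged higher with MLL-ENL than in WT, and Itgax and Siglech lower. Ciita, the master coactivator of MHC class II genes, averaged 0.425 ± 0.137 CPM in MLL-ENL preGM and 0.627 ± 0.241 CPM in WT preGM. In HSC, Ciita averaged 1.64 ± 0.176 CPM in MLL-ENL HSC and 0.322 ± 0.409 CPM in WT HSC (SD, n = 3; interaction -2.91 ± 1.15, adjusted p = 0.208). Itgax had no counts in MLL-ENL HSC and 0.0151 CPM in WT HSC, Siglech 0.0565 CPM in MLL-ENL HSC and 0.143 CPM in WT HSC, and Batf3 0.276 CPM in MLL-ENL HSC and no counts in WT HSC. The part of dendritic cells in the HSC values was not tested. The starts of H2-Aa and H2-Eb1 (chr17:34287774-34288073 on the minus strand and chr17:34305617-34305916 on the plus strand) are shown with the Y box CTGATTGG, an NF-Y site of MHC class II promoters, in capitals.
H2-Aa: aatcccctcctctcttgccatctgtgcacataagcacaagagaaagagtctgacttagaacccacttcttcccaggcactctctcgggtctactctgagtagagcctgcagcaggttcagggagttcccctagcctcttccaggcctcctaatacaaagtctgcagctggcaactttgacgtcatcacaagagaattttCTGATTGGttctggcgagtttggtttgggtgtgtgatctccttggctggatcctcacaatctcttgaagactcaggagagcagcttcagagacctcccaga
H2-Eb1: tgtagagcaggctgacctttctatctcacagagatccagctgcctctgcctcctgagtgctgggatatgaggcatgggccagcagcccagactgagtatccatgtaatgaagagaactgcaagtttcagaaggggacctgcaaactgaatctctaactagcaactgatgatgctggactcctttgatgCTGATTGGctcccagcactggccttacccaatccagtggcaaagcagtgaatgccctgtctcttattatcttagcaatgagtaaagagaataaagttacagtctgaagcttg
Each holds 1 match, searched on both strands, and 4.1% of all 32851 promoters hold at least 1. H2-Ab1 was to be searched too but had no promoter in the same source.

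Some transcription factor genes of the myeloid lineage had negative interactions. Of 14 tested, 4 were called lower (Cebpd, Spi1, Klf4 and Id2) and 0 higher, against 2.06% and 1.08% of all tested genes. The median of the list was -1.72 (-0.74 with limma on log2(RPKM + 1)). Without both libraries that stood apart, 0 higher and 4 lower were called, and 2 lower with replicate 2 of WT preGM or of WT HSC left out. Id2, an inhibitor of basic helix-loop-helix factors (chromosome 12, 25093799 to 25097140), was at 10.2, 20.01 and 20.3 CPM in MLL-ENL preGM, against 75.1, 71.7 and 91.4 CPM in WT preGM. In HSC, Id2 was at 77.8, 66.1 and 80.2 CPM in MLL-ENL HSC, against 25.8, 28.8 and 16.9 CPM in WT HSC. Its groups were separate in both cell types and moved in opposite directions (interaction -3.89 ± 0.40, adjusted p = 5.30e-05). Its relative Id3 did the same, with 22.8, 39.6 and 39.0 CPM in MLL-ENL preGM, against 68.5, 78.7 and 57.03 CPM in WT preGM. In HSC, Id3 was at 86.2, 113 and 126 CPM in MLL-ENL HSC, against 17.99, 17.8 and 18.9 CPM in WT HSC (interaction -3.58 ± 0.36, adjusted p = 4.31e-05). Id1, another relative and a JAK-STAT list member, had an interaction of -1.51 ± 0.33 (adjusted p = 0.0161). The Id1 call did not hold when 1 library was left out, namely replicate 3 of MLL-ENL HSC, or 1 of WT HSC (adjusted p = 0.0542 to 0.0576). Spi1, which encodes PU.1, a factor required for granulocytes and macrophages, averaged 11.3 ± 3.77 CPM in MLL-ENL preGM and 32.7 ± 13.8 CPM in WT preGM. In HSC, Spi1 averaged 15.03 ± 1.21 CPM in MLL-ENL HSC and 8.64 ± 1.47 CPM in WT HSC (SD, n = 3; interaction -2.33 ± 0.45, adjusted p = 0.0077). Spi1 missed the threshold with the longest transcript (adjusted p = 0.114). Cebpd had an interaction of -2.99 ± 0.68 (adjusted p = 0.0216). The Cebpd call did not hold when 1 library was left out, namely replicate 2 of WT preGM, 3 of MLL-ENL HSC, or 2 of WT HSC (adjusted p = 0.0577 to 0.063). Cebpd also missed the threshold with libraries thinned to 1 depth (adjusted p = 0.0517). Klf4, a factor of monocytes, averaged 0.428 ± 0.162 CPM in MLL-ENL preGM and 18.5 ± 6.32 CPM in WT preGM. In HSC, Klf4 averaged 0.454 ± 0.26 CPM in MLL-ENL HSC and 1.20 ± 1.58 CPM in WT HSC (interaction -4.08 ± 1.02, adjusted p = 0.0373). The Klf4 call did not hold when 1 library was left out, namely any of MLL-ENL preGM, any of WT preGM, any of MLL-ENL HSC, or 2 or 3 of WT HSC (adjusted p = 0.0539 to 0.15). Klf4 also missed the threshold without both libraries that stood apart (adjusted p = 0.063) and with scaling by library size, every exon interval counted or a replicate block (adjusted p = 0.0526 to 0.0773).

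The factors Cebpa, Cebpe, Gfi1 and Irf8, which direct granulocyte and monocyte fate, were not called (interactions 0.73 ± 0.52, -3.72 ± 1.18, -0.90 ± 0.60 and -1.79 ± 0.52; adjusted p = 0.534, 0.108, 0.508 and 0.0805). Cebpe, the factor of secondary granule genes, averaged 7.39 ± 1.32 CPM in MLL-ENL preGM and 32.7 ± 3.94 CPM in WT preGM (SD, n = 3, preGM adjusted p = 0.0231), and 0.256 and 0.0863 CPM in MLL-ENL and WT HSC. The last of these was under the floor, so the fitted Cebpe interaction is no bound.

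**Figure D3:**
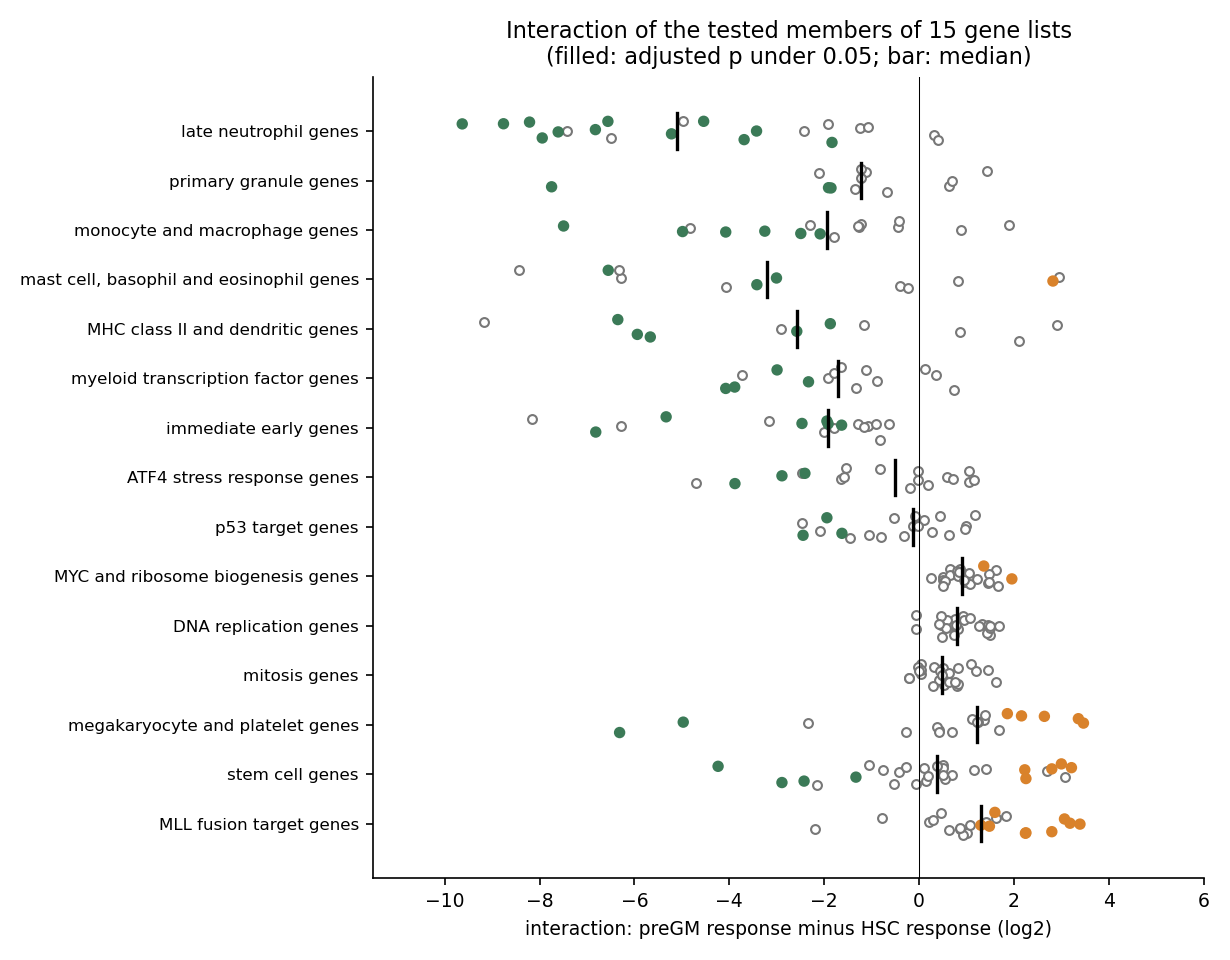
Interaction (log2) of the tested members of 15 gene lists, 1 point per gene and a bar at the list's median. Filled points passed an adjusted p of 0.05, orange for positive and green for negative values. All immediate early genes lie to the left of 0, as do most granule, monocyte and MHC class II genes, and most MLL fusion target genes lie to the right.

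Immediate early genes, which answer growth factor and stress signals within minutes, had negative interactions throughout. Of 19 listed, 17 were tested, all 17 had interactions below 0, 6 were called, and the median was -1.92 (-1.80 with groups at 0 set to the floor, -0.80 with limma on log2(RPKM + 1)). Over all tested genes the median was 0.07, and 2.06% were called lower. Egr2 and Atf3 had no counts in WT HSC, which by itself puts their fitted values below 0. In HSC 5 rose, and in preGM 3 fell and 1 rose, against 3.19%, 3.07% and 3.7% of all tested genes. Fos, an AP-1 subunit gene, was at 0.734, 0.422 and 1.08 CPM in MLL-ENL preGM, against 3.43, 3.12 and 4.21 CPM in WT preGM. In HSC, Fos was at 4.49, 3.38 and 5.02 CPM in MLL-ENL HSC, against 0.447, 0.906 and 0.123 CPM in WT HSC. The groups were separate in both cell types, in opposite directions (interaction -5.33 ± 0.75, adjusted p = 0.000813). Junb, another AP-1 gene, averaged 1.95 ± 0.398 CPM in MLL-ENL preGM and 2.98 ± 1.23 CPM in WT preGM. In HSC, Junb averaged 8.22 ± 1.66 CPM in MLL-ENL HSC and 2.26 ± 0.171 CPM in WT HSC (SD, n = 3; interaction -2.47 ± 0.50, adjusted p = 0.0113). Btg2, an antiproliferative gene also induced by p53, averaged 9.19 ± 0.926 CPM in MLL-ENL preGM and 13.1 ± 1.43 CPM in WT preGM. In HSC, Btg2 averaged 29.1 ± 4.22 CPM in MLL-ENL HSC and 10.8 ± 0.67 CPM in WT HSC (interaction -1.94 ± 0.31, adjusted p = 0.00213). Klf6 (-1.92 ± 0.41), Klf2 and Zfp36 were the other members called. The Klf6 call did not hold when 1 library was left out, namely replicate 1 of WT preGM, or 3 of MLL-ENL HSC (adjusted p = 0.0542 to 0.0557). Klf6 also missed the threshold with scaling by library size, limma on log2(RPKM + 0.1) or log2(RPKM + 1) (adjusted p = 0.0726 to 0.121). Klf2 averaged 0.0852 ± 0.0457 CPM in MLL-ENL preGM and 1.29 ± 0.384 CPM in WT preGM, and 0.477 and 0.0615 CPM in MLL-ENL and WT HSC, the last of these under the floor, so no fold is given. Egr1 was at 3.74, 2.18 and 2.84 CPM in MLL-ENL preGM, against 0.926, 1.63 and 1.17 CPM in WT preGM. In HSC, Egr1 was at 78.3, 54.9 and 79.1 CPM in MLL-ENL HSC, against 12.7, 12.7 and 10.95 CPM in WT HSC. It rose in both cell types, and the interaction was not called (interaction -1.28 ± 0.39, adjusted p = 0.0907). With both libraries that stood apart left out, 0 higher and 8 lower were called.

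Among stress and death genes the few calls were all negative, but without both libraries that stood apart, 2 of 18 ATF4 stress response genes were higher and 4 lower, 2 of 13 BCL2 family genes higher and 2 lower, and 0 of 21 p53 target genes higher and 4 lower. With all libraries, 2.06% of all tested genes were lower and 1.08% higher. Of 18 ATF4 stress response genes, 3 were lower and 0 higher, with a median of -0.50 (0.08 with limma at either pseudocount, -0.98 without WT HSC replicate 2 and -0.14 without MLL-ENL HSC replicate 2). Ddit4, an inhibitor of mTORC1, averaged 0.343 ± 0.102 CPM in MLL-ENL preGM and 1.52 ± 0.246 CPM in WT preGM. In HSC, Ddit4 averaged 3.06 ± 0.778 CPM in MLL-ENL HSC and 0.93 ± 0.418 CPM in WT HSC (SD, n = 3; interaction -3.88 ± 0.70, adjusted p = 0.00496). Trib3, a pseudokinase gene, had an interaction of -2.41 ± 0.60 (adjusted p = 0.036). The Trib3 call did not hold when 1 library was left out, namely replicate 2 or 3 of MLL-ENL preGM, 1 or 3 of WT preGM, or 2 or 3 of MLL-ENL HSC (adjusted p = 0.0711 to 0.115). Trib3 also missed the threshold with scaling by library size, limma on log2(RPKM + 0.1), log2(RPKM + 1), every exon interval counted or a replicate block (adjusted p = 0.0571 to 0.121). Of 21 p53 target genes, 3 were lower (Bax, Fas and Btg2) and 0 higher, with a median of -0.13 (0.01 with scaling by library size alone, -0.67 without WT HSC replicate 3), and of 13 tested BCL2 family genes 2 were lower (Bax and Bak1) and 0 higher, with a median of -0.57 (0.26 with a minimum count of 50, -0.28 without WT preGM replicate 2). Bak1, a pore-forming death effector gene that overlaps another over 14.8% of its exon bases, averaged 5.96 ± 0.37 CPM in MLL-ENL preGM and 10.53 ± 0.729 CPM in WT preGM. In HSC, Bak1 averaged 7.32 ± 0.457 CPM in MLL-ENL HSC and 2.79 ± 0.912 CPM in WT HSC (interaction -2.22 ± 0.40, adjusted p = 0.00516). Bax, its relative, had an interaction of -1.63 ± 0.37 (adjusted p = 0.0225), and the death receptor gene Fas of -2.45 ± 0.59 (adjusted p = 0.0303). The Bax call did not hold when 1 library was left out, namely replicate 1 of WT preGM, any of MLL-ENL HSC, or 1 or 2 of WT HSC (adjusted p = 0.0505 to 0.0745). The Fas call did not hold when 1 library was left out, namely replicate 1 or 2 of MLL-ENL preGM, 1 or 3 of WT preGM, 1 or 2 of MLL-ENL HSC, or 1 or 3 of WT HSC (adjusted p = 0.0504 to 0.0967). Fas also missed the threshold with scaling by library size, limma on log2(RPKM + 0.1), log2(RPKM + 1) or a replicate block (adjusted p = 0.0543 to 0.098).

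Growth and cell division genes lay to the other side, with few calls. All 24 MYC and ribosome biogenesis genes had interactions above 0 (median 0.91, against 0.07 over all tested genes). Of these, 2 were called, Cad and Rrp12, against 1.08% of all tested genes called higher. In HSC 4 of the 24 fell and 0 rose, against 0.93% and 3.19% of all tested genes, and in preGM 0 rose and 0 fell. Summed levels were 14320.2 to 16967 CPM in MLL-ENL preGM, against 11720.1 to 16581 CPM in WT preGM, and 4151 to 4505 CPM in MLL-ENL HSC, against 7118 to 7197 CPM in WT HSC. The preGM groups overlapped and those of HSC did not. Cad, the enzyme that starts pyrimidine synthesis, averaged 91.7 ± 19.3 CPM in MLL-ENL preGM and 62.5 ± 6.58 CPM in WT preGM. In HSC, Cad averaged 35.4 ± 1.46 CPM in MLL-ENL HSC and 62.0 ± 11.8 CPM in WT HSC (SD, n = 3; interaction 1.36 ± 0.32, adjusted p = 0.0256). The Cad call did not hold when 1 library was left out, namely replicate 1 or 3 of WT preGM, any of MLL-ENL HSC, or 2 of WT HSC (adjusted p = 0.0715 to 0.0868). Cad also missed the threshold with a replicate block (adjusted p = 0.0529). Rrp12, a ribosome assembly factor gene, was at 82.0, 30.7 and 30.2 CPM in MLL-ENL preGM, against 22.5, 31.9 and 25.1 CPM in WT preGM. In HSC, Rrp12 was at 11.4, 8.88 and 9.69 CPM in MLL-ENL HSC, against 18.8, 22.1 and 23.7 CPM in WT HSC (interaction 1.96 ± 0.47, adjusted p = 0.0303). The Rrp12 call did not hold when 1 library was left out, namely replicate 1 or 3 of WT preGM, any of MLL-ENL HSC, or 2 or 3 of WT HSC (adjusted p = 0.0579 to 0.0973). Rrp12 also missed the threshold with scaling by library size, limma on log2(RPKM + 0.1), log2(RPKM + 1) or a replicate block (adjusted p = 0.0529 to 0.0911). In the fit without both preGM libraries that stood apart, 16 higher and 0 lower were called and 24 of 24 remained above 0, while with 1 library left out 0 to 4 were called. Myc itself was at 428, 149 and 165 CPM in MLL-ENL preGM, against 92.4, 68.3 and 152 CPM in WT preGM. In HSC, Myc was at 84.9, 86.8 and 90.2 CPM in MLL-ENL HSC, against 112, 135 and 94.1 CPM in WT HSC (not called, interaction 1.63 ± 0.53, adjusted p = 0.118).

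Of 26 DNA replication genes, 24 lay above 0 (median 0.81, against 0.07 over all tested genes). EdgeR and limma called 0, or 0 to 4 higher with 1 library left out in edgeR. DESeq2 called 5, all higher, and 11 were higher and 0 lower in edgeR at an unadjusted p under 0.05. The share of all tested genes at that unadjusted p is not given here, so such counts, here and below, support no statement on a list. Without both libraries that stood apart, 16 higher and 0 lower were called. Mcm7, a subunit of the replicative helicase, was nearest, with 409 ± 133 CPM in MLL-ENL preGM and 212 ± 49.99 CPM in WT preGM. In HSC, Mcm7 averaged 149 ± 9.72 CPM in MLL-ENL HSC and 213 ± 18.5 CPM in WT HSC (SD, n = 3; interaction 1.46 ± 0.38, adjusted p = 0.0509). Uhrf1, which maintains DNA methylation, had 1.49 ± 0.43 (adjusted p = 0.0735). Of 25 mitosis genes, 21 lay above 0 (median 0.49, or 0.22 without MLL-ENL preGM replicate 1), 0 were called by edgeR, DESeq2 or limma, and 4 were higher and 0 lower at an unadjusted p under 0.05. With both libraries that stood apart left out, edgeR called 2 higher and 1 lower, and without MLL-ENL preGM replicate 2 it called 1 higher. The mitotic checkpoint genes Bub1b (1.62 ± 0.55, adjusted p = 0.132) and Ttk (1.20 ± 0.47, adjusted p = 0.204) were nearest to the threshold. Of 8 tested CDK inhibitor and retinoblastoma genes, Rb1 was the 1 called, with 16.2 ± 1.998 CPM in MLL-ENL preGM and 17.7 ± 2.91 CPM in WT preGM. In HSC, Rb1 averaged 46.2 ± 4.37 CPM in MLL-ENL HSC and 22.3 ± 2.97 CPM in WT HSC (SD, n = 3; interaction -1.18 ± 0.31, adjusted p = 0.0476). The Rb1 call did not hold when 1 library was left out, namely replicate 2 or 3 of MLL-ENL preGM, any of WT preGM, any of MLL-ENL HSC, or any of WT HSC (adjusted p = 0.0507 to 0.136). Rb1 also missed the threshold with scaling by library size, limma on log2(RPKM + 0.1), log2(RPKM + 1), no filter on low counts, every exon interval counted, the longest transcript or a replicate block (adjusted p = 0.0548 to 0.318). In the fit without both preGM libraries that stood apart, 2 of the 8 were lower. Cdkn2c, an inhibitor of CDK4 and CDK6, rose in both cell types (2.06 ± 0.34 and 1.43 ± 0.33; interaction 0.63 ± 0.46, adjusted p = 0.552). All 9 mitochondrially encoded genes lay below 0 (median -0.45), with 0 called by edgeR or limma, 1 lower by DESeq2, and 0 higher and 1 lower at an unadjusted p under 0.05. Without both libraries that stood apart, edgeR called 2 of these 9 lower, and 1 without WT preGM replicate 2. mt-Co1 and mt-Co2 were nearest (-1.27 ± 0.39 and -0.87 ± 0.51, adjusted p = 0.0962 and 0.435).

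**Figure D4:**
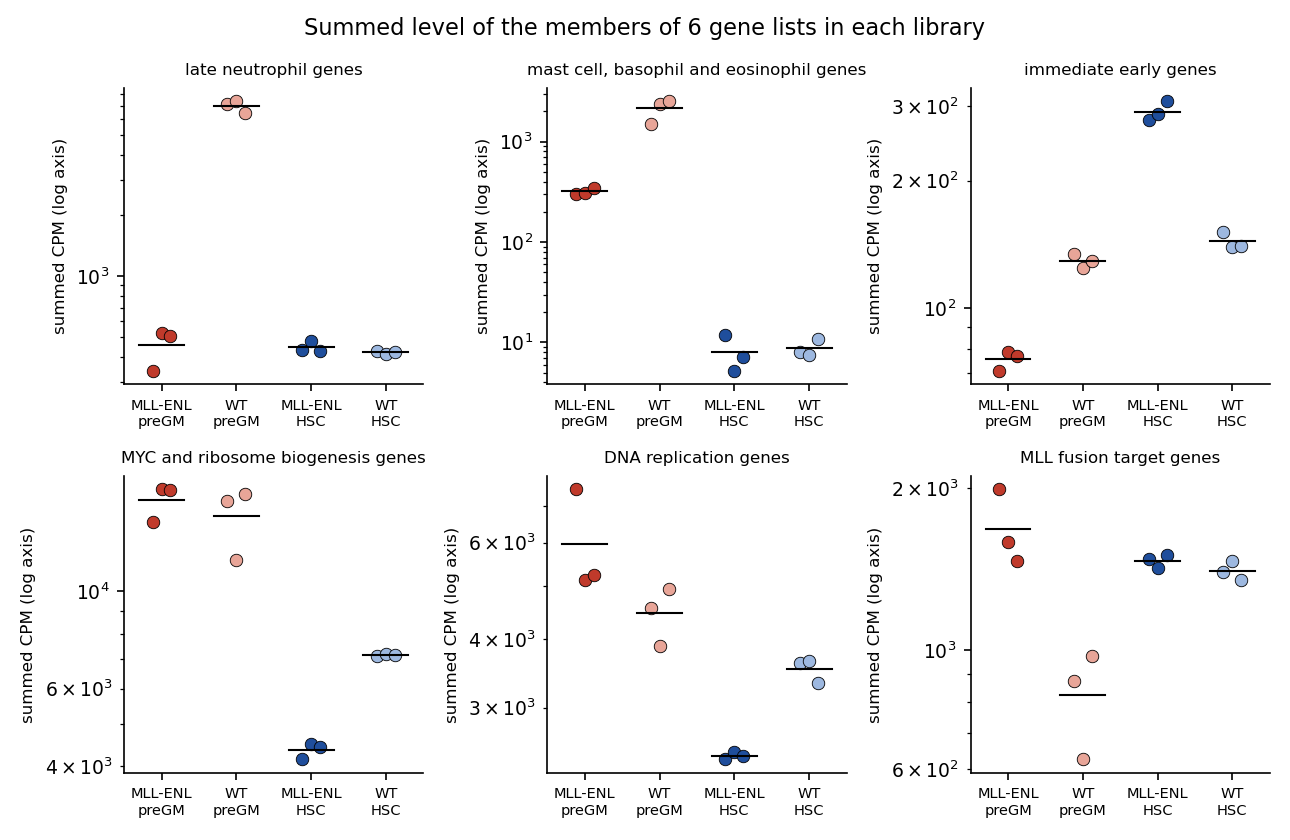
Summed level of the listed members of 6 gene lists in CPM on a logarithmic axis, with 1 point per library and a bar at the mean of the 3 libraries. Late neutrophil genes are high in WT preGM alone, immediate early genes are highest in MLL-ENL HSC, and MYC and ribosome biogenesis genes and DNA replication genes are lowest in MLL-ENL HSC.

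Other lineages and signalling genes gave fewer calls. Of 21 megakaryocyte and platelet genes, 19 were tested, 5 were higher (Itga2b, F2rl2, Treml1, Nrgn and Selp) and 2 lower (Clec1b and Thbs1). Over all tested genes, 1.08% were higher and 2.06% lower. The median of the list was 1.22, or 0.78 without MLL-ENL preGM replicate 1 and 0.32 with limma on log2(RPKM + 1). With both libraries that stood apart left out, 6 were higher and 2 lower, with a median of 0.76, and with 1 library left out 3 to 5 were higher. F2rl2, a thrombin receptor gene, averaged 3.81 ± 0.997 CPM in MLL-ENL preGM and 4.37 ± 2.48 CPM in WT preGM. In HSC, F2rl2 averaged 1.39 ± 0.907 CPM in MLL-ENL HSC and 16.3 ± 3.53 CPM in WT HSC (SD, n = 3; interaction 3.36 ± 0.67, adjusted p = 0.00995). Treml1, a platelet receptor gene, had an interaction of 3.46 ± 0.66 (adjusted p = 0.00757), Nrgn, which encodes neurogranin, 2.64 ± 0.44 (adjusted p = 0.0029), and Selp, the P-selectin gene, 1.86 ± 0.41 (adjusted p = 0.0193). Treml1 missed the threshold with libraries thinned to 1 depth (adjusted p = 0.0603). The Selp call did not hold when 1 library was left out, namely replicate 1 of WT preGM, 1 or 3 of MLL-ENL HSC, or 2 of WT HSC (adjusted p = 0.0518 to 0.075). Selp also missed the threshold with limma on log2(RPKM + 0.1) or log2(RPKM + 1) (adjusted p = 0.105 to 0.73). Thbs1, the thrombospondin gene, which monocytes also express, averaged 3.35 ± 1.41 CPM in MLL-ENL preGM and 69.3 ± 18.2 CPM in WT preGM. In HSC, Thbs1 averaged 4.99 ± 2.57 CPM in MLL-ENL HSC and 3.24 ± 1.47 CPM in WT HSC (interaction -4.97 ± 0.61, adjusted p = 0.000265). Pf4, a platelet chemokine gene, fell in both cell types (-1.99 ± 0.53 and -3.35 ± 0.56) and its interaction did not pass (1.36 ± 0.72, adjusted p = 0.377). Of 18 tested erythroid genes, edgeR called 0, DESeq2 2 higher, and limma 0 at a pseudocount of 0.1 and 1 lower at a pseudocount of 1, with 4 higher and 1 lower at an unadjusted p under 0.05 (Hemgn 1.49 ± 0.42, Car2 1.65 ± 0.56, adjusted p = 0.0667 and 0.133). In the fit without both preGM libraries that stood apart, edgeR called 3 of the 18 higher, and 1 higher with no filter on low counts or without WT preGM replicate 2.

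Of 17 lymphoid genes, 10 were tested and 2 were higher, Dntt and Satb1, and the fit without both preGM libraries also called 2. Dntt, the template-free DNA polymerase of early lymphoid cells (chromosome 19, 41029275 to 41059525), was at 2.05, 5.04 and 4.44 CPM in MLL-ENL preGM, against 0.0597, 0.233 and 0.142 CPM in WT preGM, and had no counts in any MLL-ENL HSC library, against 4.08, 2.31 and 3.75 CPM in WT HSC. In MLL-ENL HSC its level was at least 31.6-fold lower than in WT HSC, with the floor of 3 counts per library, and in preGM it was higher in every MLL-ENL preGM library than in any WT preGM library (interaction adjusted p = 1.10e-05). Satb1, a chromatin organiser of lymphoid priming, averaged 16.9 ± 0.981 CPM in MLL-ENL preGM and 9.65 ± 3.13 CPM in WT preGM. In HSC, Satb1 averaged 0.927 ± 0.571 CPM in MLL-ENL HSC and 4.37 ± 0.948 CPM in WT HSC (SD, n = 3; interaction 3.03 ± 0.55, adjusted p = 0.00569). Of 18 tested cytokine receptor genes, Flt3 and Il1r1 were higher and Csf2ra lower, and 2 were higher and 5 lower without both libraries that stood apart. Il1r1, the interleukin 1 receptor gene, averaged 5.25 ± 1.12 CPM in MLL-ENL preGM and 1.496 ± 0.339 CPM in WT preGM. In HSC, Il1r1 averaged 11.9 ± 2.40 CPM in MLL-ENL HSC and 24.03 ± 8.46 CPM in WT HSC (interaction 2.83 ± 0.44, adjusted p = 0.00181). Csf2ra, a chain of the GM-CSF receptor, averaged 6.37 ± 0.833 CPM in MLL-ENL preGM and 19.1 ± 5.14 CPM in WT preGM. In HSC, Csf2ra averaged 9.06 ± 0.403 CPM in MLL-ENL HSC and 6.97 ± 1.06 CPM in WT HSC (interaction -1.96 ± 0.37, adjusted p = 0.00668).

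Among 13 ERK feedback genes, edgeR, DESeq2 and limma called 0, but edgeR called 1 higher without both libraries that stood apart. In edgeR with all libraries, 0 were higher and 3 lower at an unadjusted p under 0.05, with Etv4 and Phlda1 having the smallest adjusted p (0.24 and 0.247). Of 10 JAK-STAT feedback genes, Id1 was the 1 called (median -0.39), and 1 was called lower without both libraries. Of 20 tested interferon response genes, Zbp1, a sensor of Z-form nucleic acid, was the 1 called, with 1.93 ± 1.03 CPM in MLL-ENL preGM and 4.73 ± 2.37 CPM in WT preGM. In HSC, Zbp1 averaged 5.90 ± 0.975 CPM in MLL-ENL HSC and 0.817 ± 0.344 CPM in WT HSC (SD, n = 3; interaction -4.12 ± 0.69, adjusted p = 0.003). Without both libraries, 2 of the 20 were higher and 1 lower. Of 22 cholesterol and fatty acid synthesis genes, Scd1, a desaturase gene, was the 1 called, with 14.8 ± 3.03 CPM in MLL-ENL preGM and 27.7 ± 4.35 CPM in WT preGM. In HSC, Scd1 averaged 4.76 ± 1.31 CPM in MLL-ENL HSC and 1.25 ± 0.896 CPM in WT HSC (interaction -2.87 ± 0.61, adjusted p = 0.014). Scd1 missed the threshold with scaling by library size (adjusted p = 0.0508). Without both libraries, 0 of the 22 were higher and 6 lower. Of 12 stromal and endothelial genes, 7 were tested and Vcam1, an adhesion molecule gene, was the 1 called. It averaged 0.143 ± 0.0805 CPM in MLL-ENL preGM and 0.917 ± 0.0589 CPM in WT preGM. In HSC it was at 0.485 CPM with MLL-ENL and had no counts in WT. Without both libraries, 1 of the 7 was higher and 1 lower.

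Genes that passed in both cell types with opposite signs numbered 39, of which 12 rose in preGM and fell in HSC and 27 did the reverse. Besides Id2, Id3, H2-Aa, Cd74 and Dntt, those with the smallest adjusted p were Ahnak, Psap, Clec7a, Tespa1 and Dlk1. Tespa1, a T cell signalling adaptor gene (chromosome 10, 130322870 to 130364111), was at 51.8, 50.7 and 51.6 CPM in MLL-ENL preGM, against 14.6, 10.8 and 17.6 CPM in WT preGM. In HSC, Tespa1 was at 1.87, 1.51 and 1.63 CPM in MLL-ENL HSC, against 16.9, 18.1 and 5.41 CPM in WT HSC. It was far lower in MLL-ENL HSC than in any other group (interaction 4.85 ± 0.51, adjusted p = 5.34e-05). Dlk1, an imprinted gene of the Notch ligand family, was at 0.715, 0.975 and 1.52 CPM in MLL-ENL preGM, against 0.0299, 0.279 and 0.114 CPM in WT preGM. In HSC, Dlk1 was at 0.791, 0.876 and 0.389 CPM in MLL-ENL HSC, against 9.72, 7.83 and 8.37 CPM in WT HSC (interaction 6.66 ± 0.79, adjusted p = 0.000187). Psap, the precursor of the lysosomal saposins, was at 68.2, 42.6 and 47.0 CPM in MLL-ENL preGM, against 193, 165 and 220.0 CPM in WT preGM. In HSC, Psap was at 89.9, 92.4 and 102 CPM in MLL-ENL HSC, against 31.5, 28.3 and 30.8 CPM in WT HSC (interaction -3.52 ± 0.34, adjusted p = 1.90e-05).

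Ahnak, a giant scaffold protein gene, was at 0.771, 1.62 and 1.32 CPM in MLL-ENL preGM, against 13.7, 16.5 and 13.1 CPM in WT preGM. In HSC, Ahnak was at 5.35, 5.02 and 6.12 CPM in MLL-ENL HSC, against 1.29, 0.77 and 0.677 CPM in WT HSC (interaction -6.14 ± 0.51, adjusted p = 5.17e-06). Clec7a, which encodes dectin-1, a receptor of myeloid cells for fungal sugars, was at 3.05, 3.05 and 2.92 CPM in MLL-ENL preGM, against 21.1, 21.5 and 25.0 CPM in WT preGM. In HSC, Clec7a was at 2.94, 2.11 and 1.80 CPM in MLL-ENL HSC, against 0, 0.136 and 0.0615 CPM in WT HSC. WT HSC was under the floor there, and the fitted interaction of -7.84 ± 0.60 is no bound (adjusted p = 2.42e-06). In all 10 genes the libraries of MLL-ENL and WT were separate in both cell types, and each interaction was called in all 24 alternatives. Both traits are favoured by the choice of these genes for small adjusted p, so they are no added support. Tgfbi, an extracellular matrix gene of macrophages chosen after its values were seen, was at 2.31, 1.01 and 1.10 CPM in MLL-ENL preGM, against 19.1, 23.9 and 30.3 CPM in WT preGM. In HSC, Tgfbi was at 27.4, 36.4 and 29.0 CPM in MLL-ENL HSC, against 16.6, 16.3 and 17.8 CPM in WT HSC (interaction -4.89 ± 0.43, adjusted p = 1.00e-05).

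The remaining genes with the largest interactions were mostly of low abundance. On the positive side, Slc35d3, a transporter gene of platelet granules, averaged 1.17 ± 0.432 CPM in MLL-ENL preGM and 0.179 ± 0.17 CPM in WT preGM. In HSC, Slc35d3 averaged 1.11 ± 0.272 CPM in MLL-ENL HSC and 6.10 ± 0.651 CPM in WT HSC (SD, n = 3; interaction 5.03 ± 0.75, adjusted p = 0.00131). Mc5r, a melanocortin receptor gene (3.58 ± 0.63), Armcx4 (3.68 ± 0.82), the amino acid transporter gene Slc6a15 (3.84 ± 0.87) and the T cell receptor gamma segment Trgj1 (3.47 ± 0.68) followed, with adjusted p from 0.00433 to 0.0218. The Armcx4 call did not hold when 1 library was left out, namely replicate 1 or 2 of WT preGM (adjusted p = 0.0536 to 0.0544). The Slc6a15 call did not hold when 1 library was left out, namely replicate 1 or 3 of WT preGM, or 2 or 3 of MLL-ENL HSC (adjusted p = 0.0604 to 0.0855). Slc6a15 also missed the threshold with limma on log2(RPKM + 0.1) or log2(RPKM + 1) (adjusted p = 0.0519 to 0.209). Ackr1, the atypical chemokine receptor gene, averaged 0.485 ± 0.235 CPM in MLL-ENL preGM and 0.0155 ± 0.0269 CPM in WT preGM. In HSC, Ackr1 averaged 2.64 ± 0.615 CPM in MLL-ENL HSC and 5.604 ± 2.65 CPM in WT HSC, with WT preGM under the floor (adjusted p = 0.00424). Ackr1 missed the threshold with limma on log2(RPKM + 1) (adjusted p = 0.12).

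On the negative side, Chil1, a chitinase-like protein gene, averaged 0.204 ± 0.112 CPM in MLL-ENL preGM and 52.0 ± 26.5 CPM in WT preGM. In HSC, Chil1 averaged 0.312 ± 0.271 CPM in MLL-ENL HSC and 0.382 ± 0.0963 CPM in WT HSC (SD, n = 3; interaction -7.74 ± 1.09, adjusted p = 0.000813). Ly6i and Bst1, surface protein genes of myeloid cells, averaged 0.844 ± 0.471 CPM in MLL-ENL preGM and 19.1 ± 11.2 CPM in WT preGM for Ly6i and 0.155 ± 0.0914 CPM in MLL-ENL preGM and 6.69 ± 1.21 CPM in WT preGM for Bst1, with WT HSC under the floor (adjusted p = 0.00137 and 0.0196). The Bst1 call did not hold when 1 library was left out, namely replicate 3 of WT preGM, 2 of MLL-ENL HSC, or 2 of WT HSC (adjusted p = 0.0511 to 0.937). Bst1 also missed the threshold with scaling by library size (adjusted p = 0.0509). Dpep2, a dipeptidase gene that overlaps another over 84.4% of its exon bases, was in HSC at least 12.2-fold higher with MLL-ENL than in WT, which had no counts, with the same floor. It averaged 1.53 ± 0.629 CPM in MLL-ENL preGM and 6.13 ± 3.66 CPM in WT preGM (interaction adjusted p = 0.000813). Saa3, an acute phase gene, rested on single libraries, at 0.865, 1.92 and 3.95 CPM in MLL-ENL preGM, against 10.7, 366 and 23.5 CPM in WT preGM. In HSC, Saa3 was at 0.0633, 5.21 and 0.177 CPM in MLL-ENL HSC, against 0.112, 0.317 and 0.0615 CPM in WT HSC (adjusted p = 0.0255). The Saa3 call did not hold when 1 library was left out, namely any of MLL-ENL preGM, 2 of WT preGM, 2 of MLL-ENL HSC, or any of WT HSC (adjusted p = 0.0675 to 0.445). Saa3 also missed the threshold with scaling by library size, limma on log2(RPKM + 0.1), log2(RPKM + 1), no filter on low counts, a minimum count of 50 or libraries thinned to 1 depth (adjusted p = 0.0509 to 0.189). Clec4n, a lectin receptor gene of myeloid cells, was at 0.621, 1.20 and 2.59 CPM in MLL-ENL preGM, against 8.96, 10.3 and 13.2 CPM in WT preGM. In HSC, Clec4n was at 0, 5.49 and 0.0707 CPM in MLL-ENL HSC, against 0, 0.0453 and 0.123 CPM in WT HSC (adjusted p = 0.0371). The Clec4n call did not hold when 1 library was left out, namely replicate 1 or 2 of MLL-ENL preGM, any of WT preGM, 2 of MLL-ENL HSC, or any of WT HSC (adjusted p = 0.0628 to 0.657). Clec4n also missed the threshold with scaling by library size, limma on log2(RPKM + 0.1), log2(RPKM + 1), no filter on low counts, every exon interval counted or a replicate block (adjusted p = 0.0512 to 0.216).

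Set against the difference between the cell types themselves, the called genes were mostly ones that separate WT preGM from WT HSC. Of the 169 genes with a positive interaction, 149 were lower in WT preGM than in WT HSC (135 called), and of the 323 with a negative one 280 were higher in WT preGM (224 called). Of all 15707 tested genes, 8040 were lower in WT preGM (3153 called) and 7658 higher (2889 called). The median log2 difference of preGM over HSC on the positive side was -0.29 with MLL-ENL, against -2.85 in WT. On the negative side it was -0.87 with MLL-ENL, against 2.09 in WT. The difference was smaller in size with MLL-ENL for 76.9% and 61.9% of the genes of these sides, against 49.8% of all tested genes. The WT libraries enter both the interaction and the WT difference, so these shares are a description and not a test.

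**Figure D5:**
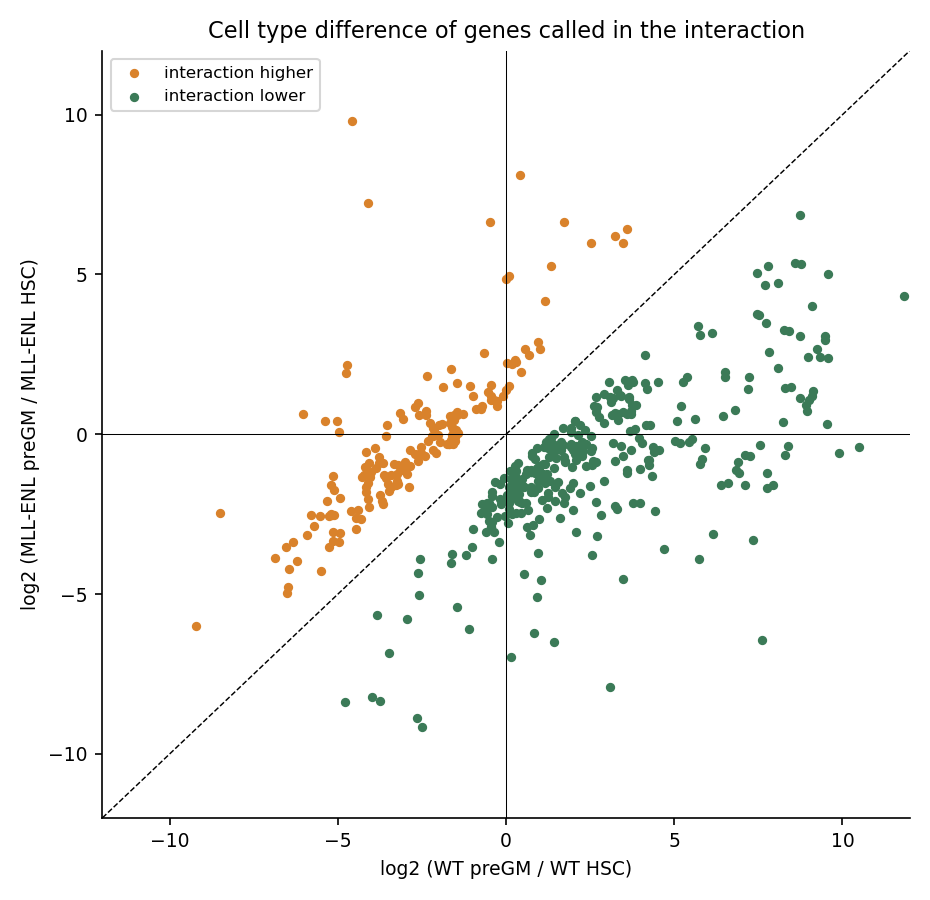
Log2 difference between preGM and HSC in WT (horizontal axis) and with MLL-ENL (vertical axis) for the 169 genes with a positive interaction (orange) and the 323 with a negative one (green). Most orange points lie left of 0 and most green points right of 0 on the horizontal axis, and the dashed line marks equal differences.

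Counts in introns, which come largely from unspliced RNA, gave a second reading of the same libraries. Of 9220 genes tested in introns that overlap no exon, 37 had a positive (0.401%) and 35 a negative interaction (0.38%). Of the 169 genes called higher in exons, 110 could be tested in introns, 91 had the same sign and 21 were called in the same direction. Of the 323 called lower, 149 could be tested, 131 had the same sign and 13 were called in the same direction, and in neither set was a gene called the other way. Over all genes tested in both exons and introns, 50.6% had a positive and 49.4% a negative intron interaction. Cd48 had an intron interaction of 5.51 ± 0.67 (SE, adjusted p = 3.44e-05), Tespa1 of 5.07 ± 0.50 (adjusted p = 9.23e-07), Meis1 of 2.38 ± 0.31 (adjusted p = 9.42e-05), Flt3 of 4.40 ± 0.83 (adjusted p = 0.0077) and S100a8 of -8.96 ± 1.74 (adjusted p = 0.00997). The number of intron calls ranged from 33 to 116 when 1 library was left out (all directions together, against 72). It was 33 with replicate 2 of MLL-ENL preGM or replicate 1 of WT preGM left out, 35 and 38 for replicates 3 and 2 of WT preGM, 38 for any MLL-ENL HSC library, 47 for replicate 1 of MLL-ENL preGM and 116 for replicate 2 of WT HSC. The libraries come from the same cells as the exon counts, so the intron counts are no independent sample.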

How the data were processed

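RNA was measured in 12 mouse libraries, 4 groups of 3 by sample title, made from total RNA with the SMARTer universal kit for small inputs (labels' protocols). The deposited files give a read count and an RPKM value (reads scaled to feature length and library size) for each of 1244064 exons and introns, the counts being raw and the RPKM values scaled by the authors, per the file headers. TopHat2 2.0.8, Bowtie2 2.1.0, HTSeq and edgeR are named in the submitters' processing notes, with the genome build not given in the sources used here. Of exon intervals, 97.5% lie in the GENCODE M21 annotation of GRCm38, from which gene names were taken for 89620 of 93615 transcripts (2910 more by overlap, 1085 left out).

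Counts of non-overlapping exon intervals, which hold 99.4% of exon bases, were summed for 37575 genes, each interval once. The interaction was fitted over all 12 libraries with edgeR 4.0.16 (R 4.3.3, quasi-likelihood, TMM scaling, filterByExpr with a minimum count of 10) on 15707 genes, two-sided with Benjamini-Hochberg adjustment and a threshold of 0.05. On data simulated with the same spread for all genes, the fit called 6% of 2-fold, 54% of 4-fold and 96% of 8-fold interactions, with 10 false calls. Small interactions are thus mostly missed. Standard errors were derived from the F statistic, and floors stand for 3 counts per library and cover counting error only. DESeq2 1.42.0, limma 3.58.1 on log2(RPKM + 0.1) and log2(RPKM + 1), other scalings, filters and exon sets, thinned libraries, a replicate block and libraries left out were the alternatives, 24 in all. Strand was not used, so overlapping genes (3817 share at least 10% of their exon bases) cannot be told apart. Pairs with the same replicate number correlated between -0.104 and 0.100, so the numbers were not taken to pair libraries. No libraries were alike within sampling noise.

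The subject, the 28 gene lists and the tests were chosen with earlier results of these data known. Named genes are the 12 with the largest interaction of each sign among called genes reaching 5 CPM in a group and keeping their sign when any library is left out, up to 5 called members of each list (2 nearest where none was called), the 10 opposite-sign genes with the smallest adjusted p, a fixed set known from earlier results, and those said in the text to be chosen after their values were seen. Promoters come from RefSeq (GRCm38.p6).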

Additional observations from a re-analysis of the deposited data

Results flagged for a closer look

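The measure of the whole report is the interaction, which compares the response between cell types. Some genes named above did not pass it, and some lists held no called member. The response to MLL-ENL was higher in preGM than in HSC for 169 genes and lower for 323. The genes that passed in both cell types with opposite signs and had the smallest adjusted p had log2 interactions of -7.84 for Clec7a, -6.14 for Ahnak, 14.4 for Dntt, -3.52 for Psap, -3.58 for Id3, -3.89 for Id2, -6.35 for H2-Aa, 4.85 for Tespa1, -5.66 for Cd74 and 6.66 for Dlk1 (edgeR, adjusted p between 2.42e-06 and 0.000187). The value for Dntt is fitted against a group with no counts and is no bound, and that for Clec7a is fitted against a group under the floor. No group held 4 or more libraries, so no formal outlier screen of single libraries was run. Both preGM libraries that stood apart were named by their place on the second principal component.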

How the results depend on the processing

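With settings other than the libraries, the number of genes with a positive interaction ranged from 130 to 407 (169 as reported) and with a negative one from 219 to 679 (323). DESeq2 gave 407 higher, 679 lower, 1362 in HSC and 1765 in preGM, limma on log2(RPKM + 1) 574 lower, 1510 in HSC and 618 in preGM, and limma on log2(RPKM + 0.1) 1108 in HSC, against 647 in HSC and 1063 in preGM as reported. Leaving out 1 library gave 90 to 250 higher, 209 to 444 lower, 312 to 1280 in HSC, 566 to 1345 in preGM and 33 to 116 in introns. Leaving out both preGM libraries that stood apart gave 1064, 862, 3369, 1129 and 33. With a replicate block, which the numbers do not justify as a pairing (1 of 18 pairs correlated above 0.1), 130 genes were higher, 273 lower, 502 called in HSC, 864 in preGM and 65 in introns. Direction changed for Mecom (-0.797), Emcn (-0.451) and Eng (-0.304) on log2(RPKM + 1), for Kit (-0.107) and Eng (-0.328) without MLL-ENL preGM replicate 1, for Kit (-0.00723) and Eng (-0.183) without both libraries, for Eng (-0.0282) without WT HSC replicate 3 and for Itgax (-0.227) without WT HSC replicate 2, and none of these 9 values passed. With 1 library left out, Kit ranged from -0.107 to 1.01, Eng from -0.328 to 0.325 and Itgax from -0.227 to 2.61. The cause was not tested. Of the other values of single genes, 2653 kept their side of the threshold, 255 lost the call and 49 gained it. Depth limits genes under 1 CPM in HSC, whose libraries hold fewest counts.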
